A study of Homo sapiens with 24 samples.

Results

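Transcripts of the mitochondrial genome were followed beside the nuclear pseudogenes that carry nearly the same sequence. MT-ATP6, MT-CO3, MTATP6P1 and MTND2P28 were read over 24 time points in K562 cells. These are 4 of the 12285 genes in the expression table, found by matching their symbols to the table's Ensembl identifiers. They were chosen from measured values of these libraries, chiefly the levels at 16 h and 18 h, so their levels there are given as a description without a test. K562 is an established human leukaemia line that grows in suspension and has erythroid features. A synchronous population was collected by centrifugal elutriation, a separation of cells by size, and was grown in RPMI medium with 10% bovine calf serum and penicillin and streptomycin. All samples shared this culture and had no other treatment. Total RNA from 1 sample was sequenced every 2 h from 0 h to 46 h, so each value is that of a single library and time is the only labelled variable. The authors describe 16 h and 18 h, and more mildly 32 h, as anomalous across the transcriptome. They propose that such anomalies are technical, which was not tested here.

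Mitochondrial DNA is transcribed from each strand as long precursors, which are cut into separate mRNAs, rRNAs and tRNAs, largely at the tRNAs that lie between the genes. MT-ATP6 encodes a subunit of the proton channel of ATP synthase. MT-CO3 encodes a catalytic core subunit of cytochrome c oxidase, the last complex of the respiratory chain. Over evolutionary time, pieces of mitochondrial DNA have been inserted into the nuclear chromosomes, where they remain as pseudogenes without a known protein product. MTATP6P1 is such a copy of MT-ATP6, and MTND2P28 is a copy of MT-ND2, the gene of a complex I subunit. Short reads from a mitochondrial RNA can align to a nuclear copy as well as to the gene they came from. The level of a copy in a total RNA library therefore cannot be told apart from reads of the mitochondrial transcript where the sequences are the same.

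In the GENCODE 29 annotation of GRCh38, MT-ATP6 (ENSG00000198899) lies at chrM:8527-9207 and MT-CO3 (ENSG00000198938) at chrM:9207-9990, so they are neighbours that share 1 base. MTATP6P1 (ENSG00000248527) lies at chr1:633696-634376 and MTND2P28 (ENSG00000225630) at chr1:629640-630683. All 4 are on the plus strand. The mitochondrial members are protein coding genes without introns, and the nuclear members are annotated as unprocessed pseudogenes. The study's processing notes name GRCh37, so these positions place the genes and were not used to count reads.

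The sequences of MT-ATP6 and MTATP6P1 are shown because they differ at so few positions. Both transcripts are 681 bases long, and 671 bases were identical when they were aligned (98.5%). The 10 differences left 1 stretch of 141 bases without any difference. Of all windows of 50 bases along the alignment, 46.7% held no difference, and of all windows of 100 bases, 11.9%. The 90 bases with the most differences, bases 103 to 192 of each transcript, hold 4 of the 10. They are printed 5′ to 3′ from the GENCODE 29 transcripts, with the differing bases in capitals.
MT-ATP6: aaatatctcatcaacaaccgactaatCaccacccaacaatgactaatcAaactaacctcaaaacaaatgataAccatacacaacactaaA
MTATP6P1: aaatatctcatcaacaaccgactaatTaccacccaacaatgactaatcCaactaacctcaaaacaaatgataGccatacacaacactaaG

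MTND2P28 was as close to its mitochondrial gene. Of 1042 aligned bases of MT-ND2 and MTND2P28, 1025 were identical (98.4%), and the longest stretch without a difference was 266 bases. MT-ND2 itself is not among the genes of the expression table, so the level of MTND2P28 has no mitochondrial partner beside it. The window with the most differences, bases 433 to 522 of each transcript, holds 5 of the 17.
MT-ND2: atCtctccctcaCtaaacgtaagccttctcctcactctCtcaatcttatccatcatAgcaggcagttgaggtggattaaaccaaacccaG
MTND2P28: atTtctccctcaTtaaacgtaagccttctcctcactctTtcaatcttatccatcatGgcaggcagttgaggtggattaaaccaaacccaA

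MT-CO3 has a shorter copy, MTCO3P12, on the same stretch of chromosome 1. Over 547 aligned bases, 537 were identical (98.2%), and the longest identical stretch was 124 bases. The densest differences, 5 of 10, lie in bases 253 to 342, of which the first 68 bases of the window are the same in both.
MT-CO3: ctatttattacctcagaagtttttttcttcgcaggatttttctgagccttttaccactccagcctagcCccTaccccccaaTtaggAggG
MTCO3P12: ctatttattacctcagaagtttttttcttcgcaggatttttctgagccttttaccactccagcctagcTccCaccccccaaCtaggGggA

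MTATP6P1 and MTND2P28 were listed at higher levels than most genes. FPKM is a level scaled to transcript length and to the reads of the library. In such bulk samples, less of an RNA per cell and fewer cells that hold it cannot be told apart. By mean FPKM over the 24 libraries, MTATP6P1 ranked 138th of 12285 genes, MT-ATP6 197th, MTND2P28 675th and MT-CO3 7621st. In 20 libraries, all except 6 h, 16 h, 18 h and 32 h, MTATP6P1 had a median of 504 FPKM, with a lowest value of 332 FPKM at 26 h and a highest of 686 FPKM at 0 h. MT-ATP6 had a median of 291 FPKM, between 203 FPKM at 26 h and 377 FPKM at 22 h. The copy was above the mitochondrial gene in each of these 20 libraries. MTND2P28 had a median of 161 FPKM, between 94.2 FPKM at 26 h and 209.7 FPKM at 0 h.

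MT-CO3 stood far below its neighbour on the mitochondrial genome. Its median in the same 20 libraries was 1.96 FPKM, with a lowest value of 0.970 FPKM at 40 h and a highest of 8.55 FPKM at 22 h. The ratio of MT-ATP6 to MT-CO3, both per length, had a median of 152 and ranged from 43.0 at 28 h to 304 at 2 h. Both genes are cut from the same precursor, and how reads were divided between the mitochondrial genes and their copies was not tested.

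**Figure D1:**
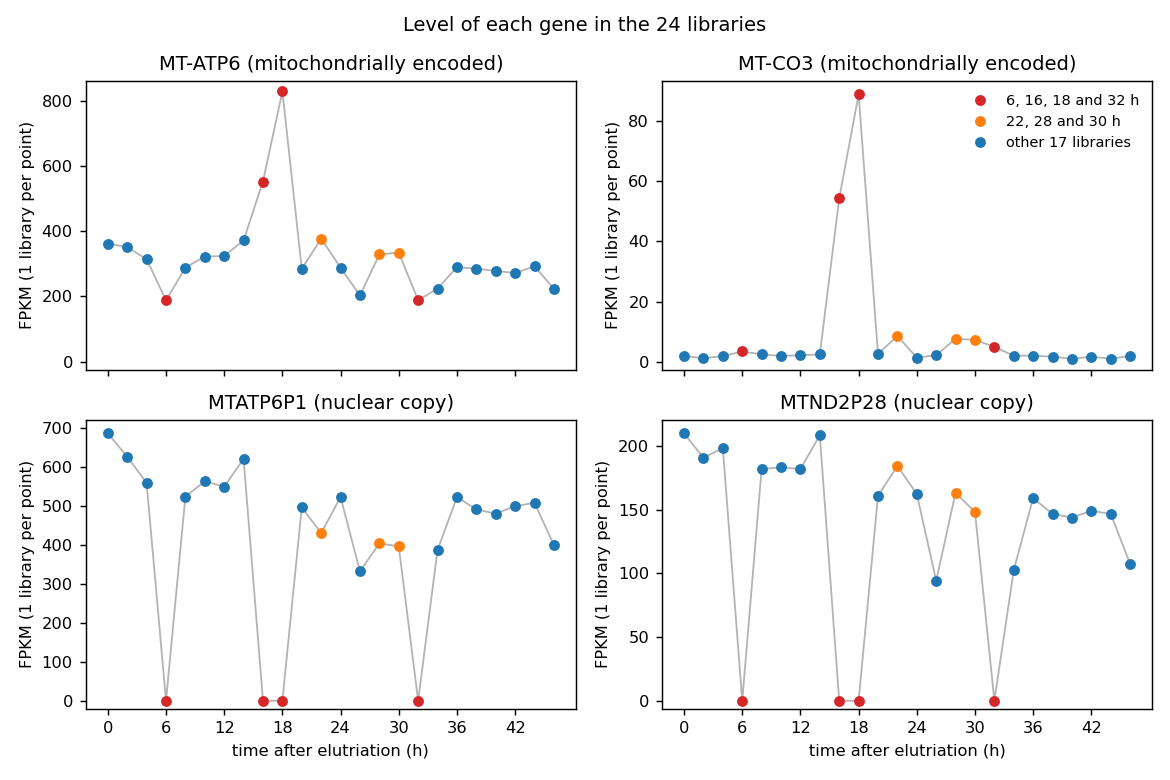
FPKM (vertical axis, linear and separate for each gene) against time after elutriation (h) for MT-ATP6, MT-CO3, MTATP6P1 and MTND2P28, with 1 point per library. At 6, 16, 18 and 32 h (red) both nuclear copies are listed at 0. MT-ATP6 and MT-CO3 are highest at 18 h, at 829 and 88.9 FPKM.

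At 4 time points both nuclear members dropped out of the table's values altogether. In the libraries of 6 h, 16 h, 18 h and 32 h both MTATP6P1 and MTND2P28 had a value of 0, and in the other 20 libraries both were above 0. Beside 6 h, MTATP6P1 was at 559 FPKM at 4 h and 524 FPKM at 8 h. Beside the other zeros it was at 621 FPKM at 14 h, 497 FPKM at 20 h, 397 FPKM at 30 h and 387 FPKM at 34 h. No value between 0 and 332 FPKM was recorded for it, so the change at these time points was a step and not a slope. An exact 0 in an FPKM table can be an absence of reads or an estimate that failed, and the table holds no mark that separates them. No fold change is therefore given against these zeros.

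MT-ATP6 itself moved in opposite directions at these time points. It was at 553 FPKM at 16 h and 829 FPKM at 18 h, against 372 FPKM at 14 h and 285 FPKM at 20 h. It was at 188 FPKM at both 6 h and 32 h, its lowest values, against 314 FPKM and 288 FPKM at 4 h and 8 h, and 335 FPKM and 224 FPKM at 30 h and 34 h. The copy was thus listed at 0 both where the mitochondrial gene was highest and where it was lowest. On the log2(FPKM + 1) scale, the mean of 16 h and 18 h lay 1.05 above the straight line between 14 h and 20 h, which is 2.07-fold. The same measure at 8 other pairs of neighbouring time points ranged from -0.54 to 0.45. Over all genes this difference had a median of 0.14, and relative to it MT-ATP6 was 0.92 higher. After median centring of the libraries the difference was 0.94, and after upper-quartile scaling 0.82, so the 2-fold line was passed only in the values as deposited. Of the 12253 genes that averaged 1 FPKM or more, 8.95% exceeded this line by 2-fold or more and 7.11% fell short of it by as much. The balance depended on the scaling, with 1097 genes above and 871 below as deposited, 794 and 1129 after median centring, and 579 and 1299 after upper-quartile scaling. These values chose the members, and nothing is read from their count.

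MT-CO3 was higher still at 16 h and 18 h. It was at 2.41 FPKM at 14 h, 54.3 FPKM at 16 h, 88.9 FPKM at 18 h and 2.59 FPKM at 20 h. The mean of 16 h and 18 h lay 4.33 above the line between its flanks on the log2(FPKM + 1) scale, or 20.1-fold. With flanks this low the size depended on the amount added, and with 0.1 FPKM the difference was 4.74. Of the 12253 genes, 5 had a larger difference in this direction. Its values at 8 other pairs ranged from -1.73 to 0.50. The ratio of MT-ATP6 to MT-CO3 was 10.2 at 16 h and 9.33 at 18 h, below the lowest of the other 20 libraries. The neighbouring genes therefore did not rise in proportion.

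At 6 h and 32 h MT-ATP6 and MT-CO3 differed less from their flanks than at 16 h and 18 h. MT-ATP6 at 6 h lay 0.67 below the mean of 4 h and 8 h on the log2(FPKM + 1) scale, or 1.60-fold lower, just outside the range of -0.60 to 0.39 at 12 other time points. At 32 h it was 0.54 lower, within that range. MT-CO3, at 3.42 FPKM at 6 h and 4.96 FPKM at 32 h, was 0.49 and 0.26 above its flanks. This was within the range of -1.21 to 1.71 at its other time points. That range is widened by high values at 22 h, 28 h and 30 h (7.27 to 8.55 FPKM), and 30 h is a flank of 32 h. As levels, both were above the 17 libraries left without these 3 and the 4 with zeros, which had 2.59 FPKM or less. At 6 h, 0.571% of all genes exceeded the mean of their neighbours by 2-fold or more and 0.865% fell short by as much. At 32 h these shares were 0.449% and 1.01%. Neither mitochondrial member passed 2-fold at these time points, and both copies were listed at 0.

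Where a copy was listed at 0, the sum of a gene and its copy was the level of the gene alone. If that 0 is an estimate that failed, the sum does not measure the pair, and it is given only as a description. The sum of MT-ATP6 and MTATP6P1 was 552.8 FPKM at 16 h and 829 FPKM at 18 h, inside the range of the other 20 libraries, which ran from 535 FPKM at 26 h to 1049 FPKM at 0 h with a median of 805 FPKM. Of these 20, only the library at 26 h was below the sum at 16 h. At 6 h and 32 h the sum was 188 FPKM, below that range. MT-ATP6 at 16 h and 18 h was thus above its flanks as a single gene, while the pair was at 993 FPKM at 14 h and 782 FPKM at 20 h. For MT-CO3 the copy was low, since MTCO3P12 had a median of 1.07 FPKM in the 20 libraries. The sum of MT-CO3 and MTCO3P12 was between 2.10 FPKM and 9.52 FPKM in those libraries and 54.3 FPKM and 88.9 FPKM at 16 h and 18 h.

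The share of the pair given to MT-ATP6 took only a few values. In 17 libraries it lay between 34.6% at 0 h and 37.9% at 26 h, with a median of 36.4%. At 22 h, 28 h and 30 h, chosen after their values were seen, it was 46.7%, 44.9% and 45.8%. It was 100% in the 4 libraries with the copy at 0, which follows from the 0 alone. The sum itself ranged over 535 to 1049 FPKM among the 17 libraries, a much wider spread than that of the share. The ratio of MTATP6P1 to MTND2P28 separated the same libraries, at 2.34, 2.48 and 2.68 at 22 h, 28 h and 30 h and between 2.82 and 3.77 in the 17 others.

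**Figure D2:**
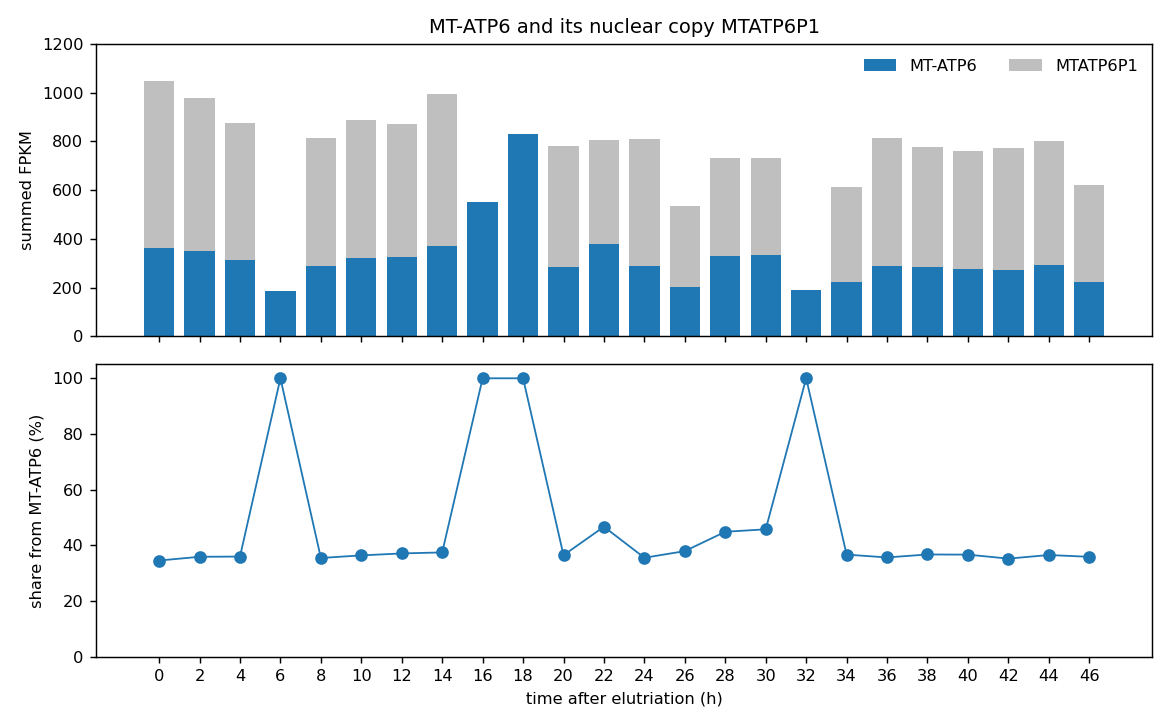
Stacked FPKM of MT-ATP6 (blue) and MTATP6P1 (grey) in each library (upper panel, from 0), and the share of that sum listed under MT-ATP6 in percent (lower panel), against time after elutriation (h). The share is 34.6% to 37.9% in 17 libraries, 44.9% to 46.7% at 22, 28 and 30 h, and 100% where the copy is listed at 0.

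The libraries at 22 h, 28 h and 30 h also stood apart in MT-CO3. It was at 8.55 FPKM, 7.65 FPKM and 7.27 FPKM there, and at 2.59 FPKM or less in the 17 others. MT-ATP8, the gene that overlaps MT-ATP6 at its start and encodes another ATP synthase subunit, behaved in the same way. It was at 22.0 FPKM, 13.9 FPKM and 16.1 FPKM at these hours and between 0.649 FPKM and 3.43 FPKM in the 17 others. The mitochondrial genes MT-ATP6, MT-ND4 and MT-ND4L did not separate in this way. Among the nuclear copies, MTCO1P12 was above the 17 others at these hours (7.08 to 8.05 FPKM against 6.87 FPKM or less), as were MTCYBP18 (30.6 to 42.8 FPKM against 22.5 FPKM or less) and MTND6P4 (2.20 to 4.31 FPKM against 1.54 FPKM or less). MTND4P12 was below the 17 others (63.0 to 67.2 FPKM against 70.9 FPKM or more). MTND2P28, at 148 to 184 FPKM against 94.2 to 209.7 FPKM, and the other 5 copies overlapped the 17 others. MALAT1, a nuclear long noncoding RNA, was at 1392 FPKM, 1177 FPKM and 1509 FPKM in these 3 libraries. It was at 11073 FPKM at 16 h and 12319 FPKM at 18 h, 1329 FPKM at 6 h and 1593 FPKM at 32 h, and between 556 FPKM and 1099.5 FPKM in the 17 others. Its part in the levels of the mitochondrial genes was not tested. How many of all genes separated the libraries of 22 h, 28 h and 30 h in this way was not counted. The separation is therefore not read as particular to the mitochondrial genes and their copies.

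Other genes of both kinds placed the zeros on the chromosome. The table held 5 of the 37 mitochondrially encoded genes (all 5 protein coding) and 10 nuclear copies. None of the 5 mitochondrial genes was listed at 0 in any library. Of the 10 copies, 7 lie next to each other on chromosome 1 in the order MTND1P23, MTND2P28, MTCO1P12, MTCO2P12, MTATP8P1, MTATP6P1 and MTCO3P12, which is the order of their counterparts on the mitochondrial genome. All 7 had a value of 0 in those 4 libraries and in no other. They covered a wide range of levels, with medians over the other 20 libraries from 1.07 FPKM for MTCO3P12, 1.09 FPKM for MTCO2P12, 1.71 FPKM for MTND1P23 and 1.92 FPKM for MTATP8P1 to 5.82 FPKM for MTCO1P12 and 504 FPKM for MTATP6P1.

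The same 4 zeros marked 10 genes of the table and no others. Beyond the 7 copies these were LINC01409, LINC01128 and LINC00115, long noncoding RNA genes with medians over all libraries of 2.29 FPKM, 14.7 FPKM and 1.68 FPKM. All 10 lie on chromosome 1. In the order of the table's genes along that chromosome, by the positions in GENCODE 29, they were the 5th to the 14th without a gap. The next gene of the table, NOC2L, was above 0 in all 24 libraries, as were the 4 genes before MTND1P23. Of all genes, 12101 had no 0 in any library, and 9 more were at 0 in these 4 libraries and in further ones. Zeros were more frequent in these libraries over all genes too, with 35 genes (6 h), 102 genes (16 h), 115 genes (18 h) and 58 genes (32 h), and 4 to 27 genes in each of the other 20 libraries. The zeros of MTATP6P1 and MTND2P28 were thus shared with a run of neighbours that includes genes with no mitochondrial counterpart, and why this run is at 0 was not tested.

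**Figure D3:**
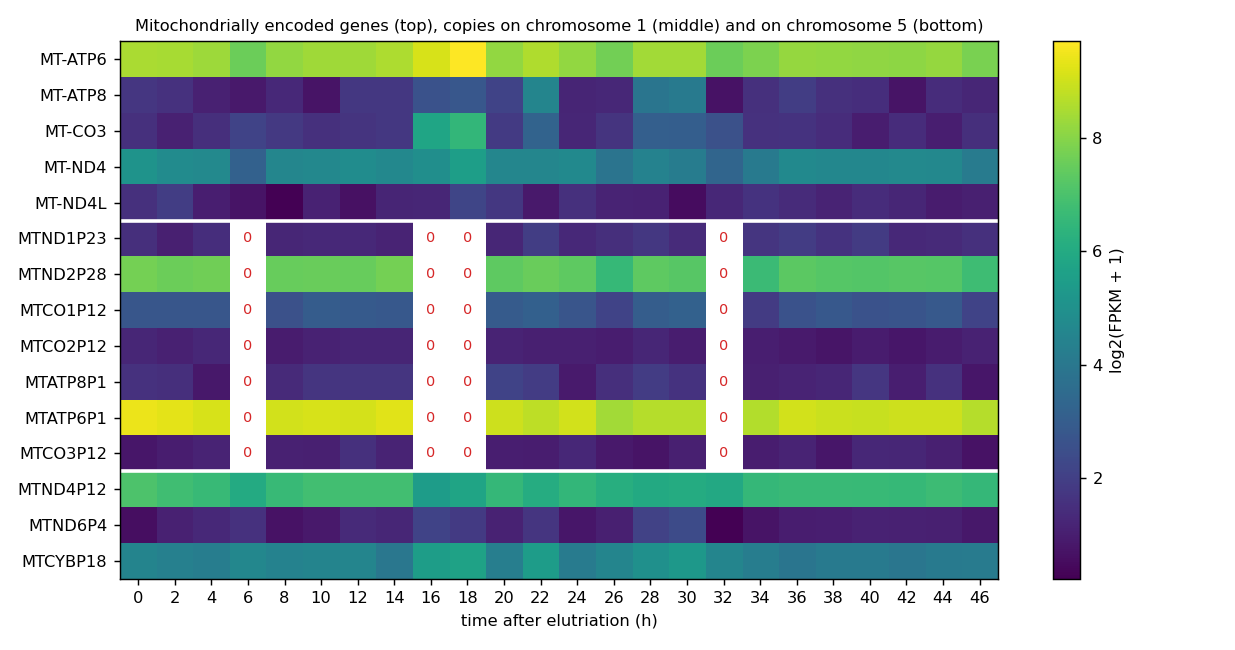
log2(FPKM + 1) by colour for the 5 mitochondrially encoded genes (top), the 7 copies on chromosome 1 in chromosomal order (middle) and the 3 copies on chromosome 5 (bottom) in each of the 24 libraries. Values listed at 0 are white with a red 0. All 28 zeros fall on the chromosome 1 copies at 6, 16, 18 and 32 h.

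The copies on chromosome 5 had no zeros. MTND4P12, the copy of the complex I gene MT-ND4, was low at 16 h (43.5 FPKM) and 18 h (52.9 FPKM), against 113 FPKM at 14 h and 91.9 FPKM at 20 h. It was at 63.8 FPKM at 6 h and 60.7 FPKM at 32 h, also below its neighbours. Its mitochondrial gene MT-ND4 was at 28.9 FPKM and 45.1 FPKM at 16 h and 18 h, between 13.7 FPKM and 32.9 FPKM in the other 20 libraries, and at 8.07 FPKM at 6 h and 9.01 FPKM at 32 h. MT-ND4 was thus low at the same hours as MT-ATP6, by 1.45 at 6 h (below its flanks, on the log2(FPKM + 1) scale) and 0.82 at 32 h, against a difference of 0.59 above them at 16 h and 18 h. The copy is less alike, with 95.8% of 1376 aligned bases identical and 3.47% of windows of 50 bases free of differences. The share of the pair listed under MT-ND4 lay between 14.9% and 25.5% in the other 20 libraries. It was higher at 16 h (39.9%) and 18 h (46.0%) and lower at 6 h (11.2%) and 32 h (12.9%). MTCYBP18, a copy of the cytochrome b gene, was high at 44.7 FPKM and 50.03 FPKM at 16 h and 18 h, against 13.9 to 42.8 FPKM in the other 20 libraries. MTND6P4, a copy of the complex I gene MT-ND6, was at 3.40 FPKM and 2.58 FPKM at 16 h and 18 h and at 0.174 FPKM at 32 h.

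The remaining mitochondrially encoded genes of the table, MT-ATP8 and MT-ND4L, were low. MT-ATP8 was at 5.07 FPKM at 16 h and 6.06 FPKM at 18 h, and at 0.613 FPKM at 32 h, its lowest value. That was 2.13 below its flanks on the log2(FPKM + 1) scale, but the flanks were unlike, at 16.1 FPKM at 30 h and 1.92 FPKM at 34 h. Similar low values were listed at 10 h (0.649 FPKM) and 42 h (0.655 FPKM). MT-ND4L, a short complex I gene that overlaps MT-ND4, ranged from 0.198 FPKM at 8 h to 3.64 FPKM at 18 h. All 5 mitochondrial genes were above the line between their flanks at 16 h and 18 h, with differences from 0.24 for MT-ND4L to 4.33 for MT-CO3 on the log2(FPKM + 1) scale. They stayed above it after median centring and upper-quartile scaling. The median of all genes was also above the line as deposited (0.14) and after median centring (0.02), but not after upper-quartile scaling (-0.06). A place above the line was thus common, and nothing is read from the count. As deposited, only MT-ATP6 and MT-CO3 of the 5 mitochondrial genes passed 2-fold, as did 8.95% of all genes. The differences for MT-ND4L and MT-ATP8 (0.76) were within the range of their other pairs.

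Apart from the 4 time points, the abundant members rose and fell with each other. The libraries at 26 h, 34 h and 46 h were low in all of them. MT-ATP6 was at 203 FPKM, 224 FPKM and 224 FPKM there and at 272 FPKM or more in the other 17 of the 20 libraries. MTND2P28 was at 94.2 FPKM, 103 FPKM and 107 FPKM, against 144 FPKM or more. MTATP6P1 was at 332 FPKM, 387 FPKM and 399 FPKM, and only the 397 FPKM at 30 h of the others fell within this range. MT-CO3 did not share the drop, at 2.17 FPKM, 1.99 FPKM and 1.87 FPKM.

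These 3 libraries, and those at 22 h, 28 h and 30 h, form clusters too small for a correlation of their own, and they were found after the values were seen. The libraries at 22 h, 28 h and 30 h differ in the share of MT-ATP6 and in the ratio of MTATP6P1 to MTND2P28. Leaving them out therefore raises r of MTATP6P1 with MT-ATP6 and with MTND2P28 by the choice itself. The libraries at 26 h, 34 h and 46 h were set apart by low MT-ATP6 and MTND2P28. No p is therefore given for the libraries that remain without both clusters. The planned set is the 20 libraries. In the 14 remaining libraries, MT-ATP6 and MTATP6P1 had a Pearson r of 0.95 and a Spearman rho of 0.90. Without the libraries at 0 h and 14 h, the farthest from the median of MT-ATP6, r was 0.94. MT-ATP6 and MTND2P28 had an r of 0.88 and a rho of 0.78, and r was 0.79 without 0 h and 14 h. MTATP6P1 and MTND2P28 had an r of 0.89 and a rho of 0.92, and r was 0.92 without 0 h and 2 h. The points are consecutive samples of a single culture and not independent, and MT-ATP6 and MTATP6P1 can share reads.

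The separate libraries changed some of these values. Over all 20 libraries, r between MT-ATP6 and MTATP6P1 was 0.64 (permutation p adjusted = 0.0040) and rho 0.54 (permutation p adjusted = 0.032). It fell to an r of 0.42 without 26 h and 46 h (permutation p adjusted = 0.13), with 22 h, 28 h and 30 h kept in. Without 22 h, 28 h and 30 h, where the share of this pair stood apart, r was 0.98, a rise that follows from that choice. In that set r was 0.97 when 26 h and 46 h were left out too. The plot of the 2 genes shows these 3 libraries on their own, below the line of the others. Between MT-ATP6 and MTND2P28, r was 0.91 over the 20 libraries and rho 0.80 (permutation p adjusted = 3.0e-05 and 0.00030), and r was 0.83 without 26 h and 46 h. Between MTATP6P1 and MTND2P28, r was 0.83 and rho 0.81, with r at 0.74 without 0 h and 26 h.

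No relation of MT-CO3 to the other members passed the threshold in the 20 libraries as deposited. Over the 20 libraries its r with MTATP6P1 was -0.42 (permutation p adjusted = 0.095), and after upper-quartile scaling it was -0.47, which passed (permutation p adjusted = 0.0498). In the 14 libraries its r was 0.20 with MT-ATP6, 0.18 with MTATP6P1 and 0.46 with MTND2P28, given without a p. At its level of about 2 FPKM the depth is unknown, and small differences cannot be weighed.

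**Figure D4:**
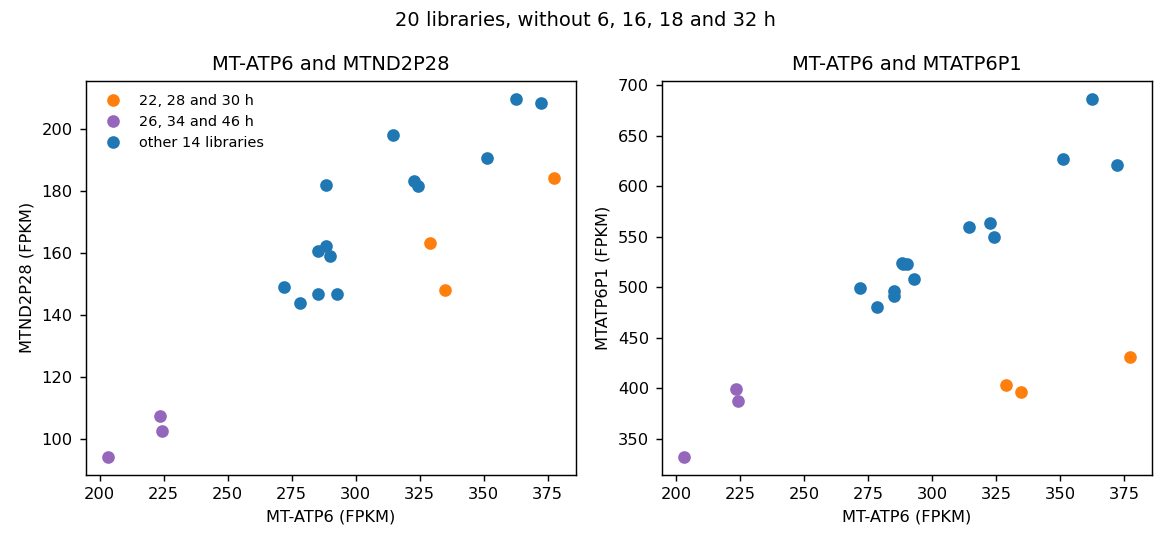
MTND2P28 (left) and MTATP6P1 (right) against MT-ATP6, in FPKM on linear axes that do not start at 0, with 1 point for each of 20 libraries. The libraries at 26, 34 and 46 h (purple) lie at the low end of both, and those at 22, 28 and 30 h (orange) lie below the other points on the right, where r is 0.64 with them and 0.98 without them. The orange libraries were set apart after the values were seen.

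The genes most like each member were taken over the 20 libraries. For MT-ATP6 the highest Pearson r were with MTND2P28 (0.91), RPL23A (0.91), RPL39 (0.88), RPS14 (0.87) and RPL34 (0.87), of which the last 4 encode cytosolic ribosomal proteins. The genes most like MTND2P28 included RPL39 (0.96), RPL4 (0.95), RPL34 (0.92) and MT-ATP6 (0.91). RPL39 was lowest at 34 h, at 26.3 FPKM, against a median of 53.8 FPKM, and RPL4 was lowest at 26 h, at 722 FPKM against a median of 914 FPKM. For MTATP6P1 the list was RPS27A (0.92), MT-ND4 (0.91), the pseudogene RPS2P5 (0.89), RPL29 (0.88) and the pseudogene RPL6P27 (0.88). RPS27A was lowest at 26 h, at 169.7 FPKM against a median of 263 FPKM. MT-CO3 had a different list: CCT7, a chaperonin subunit (0.94), GNL3L, a nucleolar GTPase (0.94), the translation initiation factor gene EIF2S1 (0.93), PITPNB, a lipid transfer protein gene (0.93), and DAXX, a histone chaperone gene (0.92). CCT7, EIF2S1, PITPNB and DAXX were highest at 22 h and GNL3L at 30 h. MT-CO3 itself was at 7.27 to 8.55 FPKM at 22 h, 28 h and 30 h and at 2.59 FPKM or less in the 17 others. Its likeness to these genes without those 3 libraries was not examined. These values describe likeness over n = 20 libraries in which the genes share library, depth and base composition effects, and no p is given.

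The second day was set beside the first at 8 hours free of zeros (0, 2, 4, 10, 12, 14, 20 and 22 h against the library 24 h later). MTND2P28 was lower on the second day at 8 of 8 hours. It was at 209.7, 191, 198, 183, 182, 208, 161 and 184 FPKM on the first day and at 162, 94.2, 163, 103, 159, 147, 147 and 107 FPKM at the matched hours of the second. The groups overlapped only through 20 h of the first day and 24 h and 28 h of the second. The mean difference was -0.51 on the log2(FPKM + 1) scale (SD 0.32, n = 8 pairs), or 0.702 times the first day. The exact sign-flip p of 0.0078 is the smallest that 8 pairs can give, and adjusted over 12253 genes it was 0.077.

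MTATP6P1 was lower at 7 of 8 hours and MT-ATP6 at 6 of 8. MTATP6P1 had a mean difference of -0.35 (SD 0.31, n = 8, exact sign-flip p = 0.016, adjusted p = 0.096). MT-ATP6 also had a mean difference of -0.35 (SD 0.33, n = 8, exact sign-flip p = 0.031, adjusted p = 0.13). MT-ND4 was lower at 7 of 8 hours, by 0.33 on average (SD 0.32, n = 8, exact sign-flip p = 0.023, adjusted p = 0.12). MT-CO3 was lower at 5 of 8 hours, with a mean difference of -0.14 and a much wider spread (SD 0.97, n = 8, exact sign-flip p = 0.70, adjusted p = 0.83). None of these passed an adjusted p of 0.05. No gene did, in either direction (0% of 12253), while 3509 genes had an unadjusted exact p under 0.05. The libraries at 26 h, 34 h and 46 h are 3 of the 8 of the second day.

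**Figure D5:**
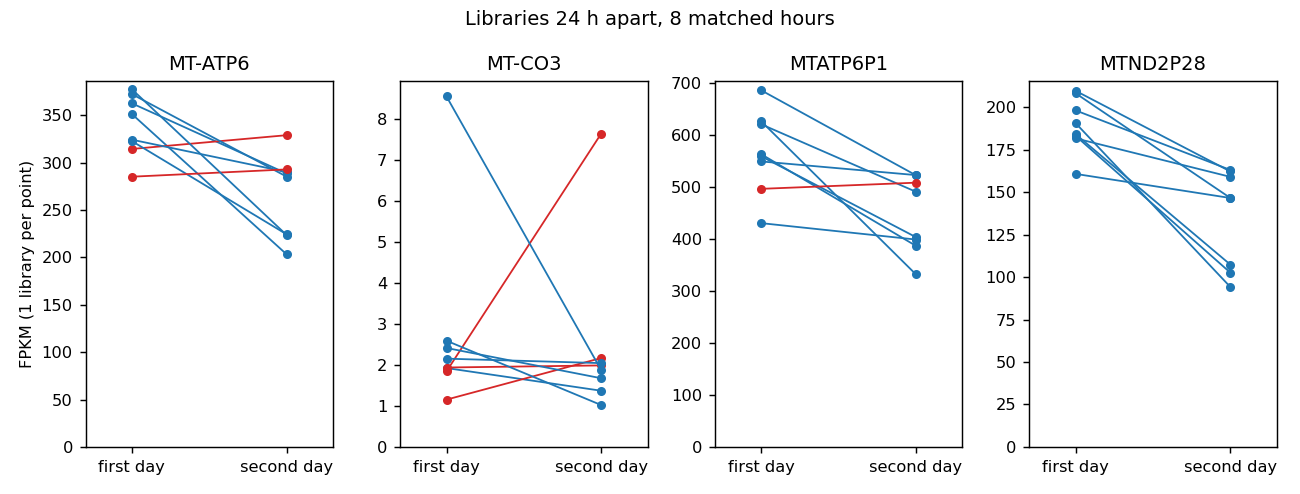
FPKM of each gene on the first day and 24 h later, from 0 on each vertical axis, with a line for each of 8 matched hours (blue lower on the second day, red higher). MTND2P28 is lower on 8 of 8 lines, MTATP6P1 on 7, MT-ATP6 on 6 and MT-CO3 on 5.

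No order in time with a period of 24 h was detected for the members. The authors count 12 time points to a cell cycle in this culture. The JTK statistic, the largest Kendall S of a series against cosines of a 24 h period at 12 phases, was computed over 22 time points without 16 h and 18 h. S was 79 for MT-CO3 (permutation p = 0.084, adjusted p = 0.20), 32 for MTATP6P1 (permutation p = 0.70, adjusted p = 0.79), 22 for MTND2P28 (permutation p = 0.87, adjusted p = 0.91) and 21 for MT-ATP6 (permutation p = 0.89, adjusted p = 0.93). With the tied zeros kept in the orderings, the permutation p was 0.72 for MTATP6P1 and 0.88 for MTND2P28. Of all 12285 genes, 16.2% were called at an adjusted p of 0.05, and among the other mitochondrial genes and copies only MTCYBP18 was (S = 107, permutation p = 0.0074, adjusted p = 0.046).

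The deposited cleaned table gives each gene as a score, scaled within the gene and then set to a common distribution in each library. There the zeros no longer had a common value. MTATP6P1 had scores of -1.76 at 6 h and -1.74 at 32 h but -1.03 at 16 h and -0.87 at 18 h, and MTND2P28 of -1.72, -1.70, -0.997 and -0.85. At 26 h, where it was above 0 in the FPKM table, MTND2P28 had a score of -1.01, close to that of its zero at 16 h. MT-ATP6 was lowest at 26 h in the cleaned table, at -1.44, below its scores of -0.92 at 6 h and -1.001 at 32 h, although its FPKM was lower at 6 h and 32 h. MT-CO3 remained highest at 18 h, at a score of 2.50, with 0.74 at 16 h and scores between -0.54 and -0.02 elsewhere.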

How the data were processed

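RNA sequencing of 24 K562 samples, 1 per time point, was analysed. The members and gene lists were chosen with earlier results of these data known. The authors aligned reads with STAR and quantified and normalized them with Cufflinks2 and Cuffnorm, and the processing notes name GRCh37. Full version numbers, annotation, read length and the handling of reads with several alignments are not given in the sources used here. The deposited FPKM values were used as they stand, and the second deposited table, a score for each value, was only described. Every gene had at least 1 FPKM in at least 12 libraries. The files hold no read counts and the depth is unknown: low values of 1526 genes with 1 transcript lay at whole reads (within 0.1) in at most 31.5% of cases, against up to 30.5% with scrambled lengths, so reads were not recovered.

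Of 12285 identifiers, 12123 matched the name table. Copies were aligned with Biopython 1.88 (local, match 1, mismatch -2, gap opening -5, gap extension -1). Deviations were taken on log2(FPKM + 1). Second-day differences used exact sign-flip tests (two-sided, 256 flips), order in time and correlations 100000 permutations (correlations two-sided), with Benjamini-Hochberg adjustment over all tested genes or over 6 pairs, in Python 3.11.15 with numpy 2.4.6, pandas 2.3.3 and SciPy 1.17.1. These p-values measure the spread between time points of 1 culture. Steps were tested on simulated data. Named genes are the members, all other genes of the mitochondrially encoded and nuclear copy lists, the 5 genes most like each member, and the highest and lowest of each other list at 16 h and 18 h. Some genes that this rule or the marker lists name are not reported here. LINC01409, LINC01128, LINC00115 and NOC2L were named after their values were seen.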

Additional observations from a re-analysis of the deposited data

How the results depend on the processing

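The distance of a copy listed at 0 from its flanks is set by the pseudocount and measures no fold. On the log2 scale it was -9.12 at 16 h and 18 h, -9.08 at 6 h and -8.62 at 32 h for MTATP6P1, and -7.52, -7.58 and -6.96 for MTND2P28, with 1 FPKM added. With 0.1 FPKM these were -12.44, -12.40 and -11.94 for MTATP6P1, and -10.84, -10.89 and -10.27 for MTND2P28. With all 12 matched hours, zeros included, the second-day difference reversed to 1.22 for MTATP6P1 (adjusted p = 0.77, exact sign-flip test) and 0.84 for MTND2P28 (adjusted p = 0.77, exact sign-flip test), and 1225 genes were called higher and 833 lower against 0 and 0. Leaving out 1 pair of hours in turn moved the difference of MTND2P28 between -0.57 and -0.44, of MTATP6P1 between -0.40 and -0.27 and of MT-ATP6 between -0.41 and -0.29, while that of MT-CO3 ran from -0.38 to 0.09. The number of genes called for order in time went from 1993 to 1226 over 20 time points, 154 for a period of 20 h and 342 for 28 h.

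With all 24 time points, zeros included, r became -0.20 between MT-ATP6 and MTATP6P1, -0.17 between MT-ATP6 and MTND2P28, -0.69 between MT-CO3 and MTND2P28, -0.71 between MT-CO3 and MTATP6P1 and 0.71 between MT-ATP6 and MT-CO3. Over the planned 20 time points, r between MT-CO3 and MTATP6P1 was -0.42 (adjusted permutation p = 0.095), and -0.47 after upper-quartile scaling (adjusted permutation p = 0.0498). Without the 2 time points farthest from the median, r was 0.42 for MT-ATP6 and MTATP6P1 and -0.015 for MT-CO3 and MTND2P28, against 0.64 and 0.10. In the sets of time points chosen after seeing the data, r reversed to -0.059 for MT-ATP6 and MT-CO3 over 17 and to 0.18 for MT-CO3 and MTATP6P1 over 14. With a mean of at least 10 FPKM, 549 genes lay at least 2-fold below their flanks at 16 h and 18 h against 871, 26 above and 33 below at 6 h against 70 and 106, and 27 above and 36 below at 32 h against 55 and 124. Of the 119 values from settings fixed in advance, 93 had the same direction and call as reported or moved by less than the spread over other time points.

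The depth is unknown and there are no replicates, so the precision of single values, above all those of MT-CO3 near 2 FPKM, cannot be given. Reads shared by a gene and its copy cannot be told apart in FPKM values.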

Other observations

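The nuclear genes that serve the mitochondrial genome were read beside its transcripts at 16 h and 18 h, as the distance from the line between 14 h and 20 h on the log2(FPKM + 1) scale. Among all genes, 8.95% were at least 2-fold above and 7.11% at least 2-fold below, and the median was 0.14. Of 29 genes for mitochondrial transcription and RNA handling, 3 were above 2-fold and 1 below, with a median of 0.20. The highest was PNPT1, a polynucleotide phosphorylase, at 57.8 FPKM at 14 h, 122 FPKM at 16 h, 139.9 FPKM at 18 h and 55.6 FPKM at 20 h. The lowest was FASTK, of a family of mitochondrial RNA-binding proteins, at 52.05 FPKM, 19.3 FPKM, 14.1 FPKM and 44.4 FPKM. None of 8 genes for mitochondrial DNA replication passed 2-fold (median 0.24), with the helicase and nuclease gene DNA2 highest at 0.80 and the polymerase gene POLG lowest at -0.93.

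The nuclear partners of the encoded subunits were read in the same way. Of 11 nuclear subunits of cytochrome c oxidase, the complex of MT-CO3, none was above 2-fold and 4 were below, with a median of -0.75. COX8A was lowest, at 420 FPKM at 14 h, 103 FPKM at 16 h, 79.9 FPKM at 18 h and 377 FPKM at 20 h, and COX4I1 highest, at 459 FPKM, 543 FPKM, 501 FPKM and 435 FPKM. Of 18 nuclear subunits of ATP synthase, the complex of MT-ATP6, none was above and 2 were below (median -0.21). ATP5F1C was highest, at 0.96, and ATP5MC2 lowest, at -1.23. Of 25 assembly factors of both complexes, 2 were above and 2 below (median -0.10), with COX19 highest at 1.21 and SURF1 lowest at -1.32. Of 4 nuclear-retained long RNAs, 2 were above and none below (median 0.65). MALAT1 was highest at 3.59, and NEAT1 lowest at -0.78. No test was made, since each time point is a single library.

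The K562 label was checked against markers. All 8 erythroid and leukaemic markers were in the table, among them HBG2, a fetal globin gene, at a median of 2434 FPKM, and GATA1, an erythroid transcription factor, at 133 FPKM. Of the markers of other cells, 1 of 5 for fibroblasts (COL1A2, median 3.04 FPKM) and 1 of 3 for monocytes (LYZ, 20.8 FPKM) were in it, and the lymphoid marker CD3D had a median of 5.85 FPKM.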
